A study of Mus musculus with 12 samples.

Results

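Polycomb genes were followed in mouse embryos that differed in maternal diet and in the gene Cited2. The set held 10 genes, namely Bmi1, Pcgf2, Ring1, Rnf2, Cbx2, Ezh2, Ezh1, Eed, Suz12 and Cdkn2a, of 19057 genes with a probe on the array. They were chosen as members of the Polycomb repressive complexes, regulators of Hox genes, together with Cdkn2a, a gene these complexes silence, and all 17 probes that carried one of these symbols were taken. Of these, 11 probes for 8 genes were detected often enough to be tested, among 19595 tested probes for 10764 genes.

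RNA of 12 embryos was read on Illumina mouse BeadChips, 1 array per embryo, and the embryos formed 4 groups of 3. Control-diet wild-type and control-diet Cited2 -/- (knockout) embryos came from mothers on a control diet, and high-fat wild-type and high-fat Cited2 -/- embryos from mothers on a high-fat diet. All were C57BL6/J embryos at 8.5 days post coitum, and all mothers and fathers were Cited2 heterozygotes. The mothers entered their diet at 6 weeks of age, were mated after 8 weeks on it and stayed on it while pregnant. The embryos had been freed of yolk sac and allantois and matched by somite number, per the labels' protocols. The sample titles carry 6 different numbers, each shared by 1 wild-type and 1 knockout embryo of the same diet, so each diet holds 3 numbers. What a title number stands for is not stated, and the sources used here do not say whether embryos shared a litter. The main fit treated the 12 embryos as independent, so p-values measure the spread between these embryos.

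Polycomb proteins keep developmental genes silent through 2 complexes. Polycomb repressive complex 2 (PRC2) methylates a lysine of histone H3, and Polycomb repressive complex 1 (PRC1) reads that mark through its Cbx subunits and adds ubiquitin to histone H2A. In the early embryo their best known targets are the Hox clusters and the Cdkn2a locus, which encodes the cell cycle inhibitors Ink4a and Arf. In mouse embryonic fibroblasts, loss of Cited2 has been reported to lower Bmi1 and Pcgf2 and to raise the products of Cdkn2a. Cited2 itself, whose protein binds the coactivators CBP and p300, marked the genotypes. Its brightest probe read 10.94 to 11.90 log2 units in the wild-type embryos and 4.38 to 6.85 in the knockouts. Detection succeeded on 6 of 6 wild-type arrays and on 1 of 6 knockout arrays, high-fat knockout replicate 3.

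The stretches of 250 bases before the starts of Bmi1, Pcgf2 and Cdkn2a are shown because these are the genes of the reported Cited2 link. They were taken from RefSeq on GRCm38.p6 and run 5′ to 3′ on the strand of the gene. Cdkn2a has a downstream start, that of Ink4a, and an upstream start, that of Arf. Capitals mark CACGTG, the E box bound by Myc family proteins, or TTTCCCGC, a form of the E2F site. Both were picked after reading the sequences and searched on both strands.

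Bmi1, chr2:18676768-18677017 (+): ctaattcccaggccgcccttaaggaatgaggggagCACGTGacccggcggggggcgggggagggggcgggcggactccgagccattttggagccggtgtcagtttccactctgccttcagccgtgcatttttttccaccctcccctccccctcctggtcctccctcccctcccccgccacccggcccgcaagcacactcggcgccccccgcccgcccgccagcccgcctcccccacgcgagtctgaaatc
Pcgf2, chr11:97699649-97699898 (-): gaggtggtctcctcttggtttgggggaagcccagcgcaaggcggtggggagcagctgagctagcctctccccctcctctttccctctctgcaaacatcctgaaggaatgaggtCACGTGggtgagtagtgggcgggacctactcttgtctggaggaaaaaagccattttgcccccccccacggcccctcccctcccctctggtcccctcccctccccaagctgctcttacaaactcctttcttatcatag
Cdkn2a downstream start, chr4:89282193-89282442 (-): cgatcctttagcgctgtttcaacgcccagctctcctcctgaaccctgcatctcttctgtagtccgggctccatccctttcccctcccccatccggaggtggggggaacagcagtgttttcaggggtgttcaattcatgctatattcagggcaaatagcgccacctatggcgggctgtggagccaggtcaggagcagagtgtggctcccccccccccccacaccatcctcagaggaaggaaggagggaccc
Cdkn2a upstream start, chr4:89294620-89294869 (-): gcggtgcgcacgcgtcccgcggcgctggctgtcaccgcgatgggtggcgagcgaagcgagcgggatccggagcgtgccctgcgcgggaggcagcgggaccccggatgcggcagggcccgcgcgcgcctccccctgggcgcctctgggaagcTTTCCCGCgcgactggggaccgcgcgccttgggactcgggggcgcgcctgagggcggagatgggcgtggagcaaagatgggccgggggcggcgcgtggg

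The Bmi1 stretch was 70.4% G and C with 21 CpG pairs and held CACGTG at position -215 from the start. The Pcgf2 stretch was 59.6% G and C with 5 CpG pairs and held CACGTG at -137. CACGTG lay in 2 of the 10 stretches of the 9 members in the RefSeq table, and in 1978 of 32851 such stretches over all genes, which is 6.02%. The 2 starts of Cdkn2a differed in composition: 40 CpG pairs and 78.4% G and C before the upstream start, against 7 CpG pairs and 60.0% before the downstream one. TTTCCCGC lay before the upstream start of Cdkn2a at -99 and before Suz12 at -219, and in 0.895% of all stretches. The 2 motifs share no match, and the arrays measured RNA, so nothing was measured at these stretches.

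Signals were background-corrected, quantile-normalized and expressed as log2 values, and differences are log2 fold changes with standard errors and 95% intervals from 1 limma fit over all 12 arrays. A gene passed at a Benjamini-Hochberg adjusted p under 0.05 over all tested probes. The correction added 16 signal units to every probe, which shrinks the fold changes of dim probes. The arrays were put into sets A and B of 6 each at a gap in bead-to-bead variation (18.0% to 20.5% in A and 21.4% to 23.8% in B). The probes for this were chosen to match an earlier division, so bead variation did not define the sets on its own. The first principal component, with 47.7% of the variance, also separated these sets. Set A held 4 of the 6 high-fat embryos and set B held 2, while each set held 3 knockouts. Each control-diet group had 1 embryo in set A, and each high-fat group had 1 in set B. Values within a set are therefore effect sizes only, and whether an effect differed between the sets was not tested. What the sets stand for is not stated in the labels, so for single genes the value with the set as a block is given where it turns the sign or moves the value by over 1.5 times, and beside the main results. Between 16584 and 18853 probes were detected per array, and arrays correlated at 0.953 to 0.993.

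None of the 8 tested Polycomb genes passed in any comparison. Averaged over the diets, 0 of 8 passed for knockout against wild type, where 0.0714% of all probes passed. Averaged over the genotypes, 0 of 8 passed for high-fat against control diet, where 0% of all probes passed. On the control diet alone the genotype comparison gave 0 of 8 against 0.0408% of all probes, and on the high-fat diet 0 of 8 against 0.0153%. The diet comparison gave 0 of 8 in wild-type embryos, in knockout embryos and for the diet by genotype interaction, each against 0% of all probes. At an unadjusted p under 0.05 in limma, 0 of the 8 genes passed for the averaged genotype effect and 1, Ezh2, for the averaged diet effect, where 3.35% and 11.8% of all probes did. For the diet effect in wild-type embryos there were 2, Bmi1 and Ezh2, beside 4.16% of all probes, and for the interaction 1, Bmi1, beside 1.26%. The other 3 comparisons had 0 members at that level, beside 1.62% of all probes for genotype on the control diet, 3.38% for genotype on the high-fat diet and 6.15% for diet in knockouts.

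**Figure D1:**
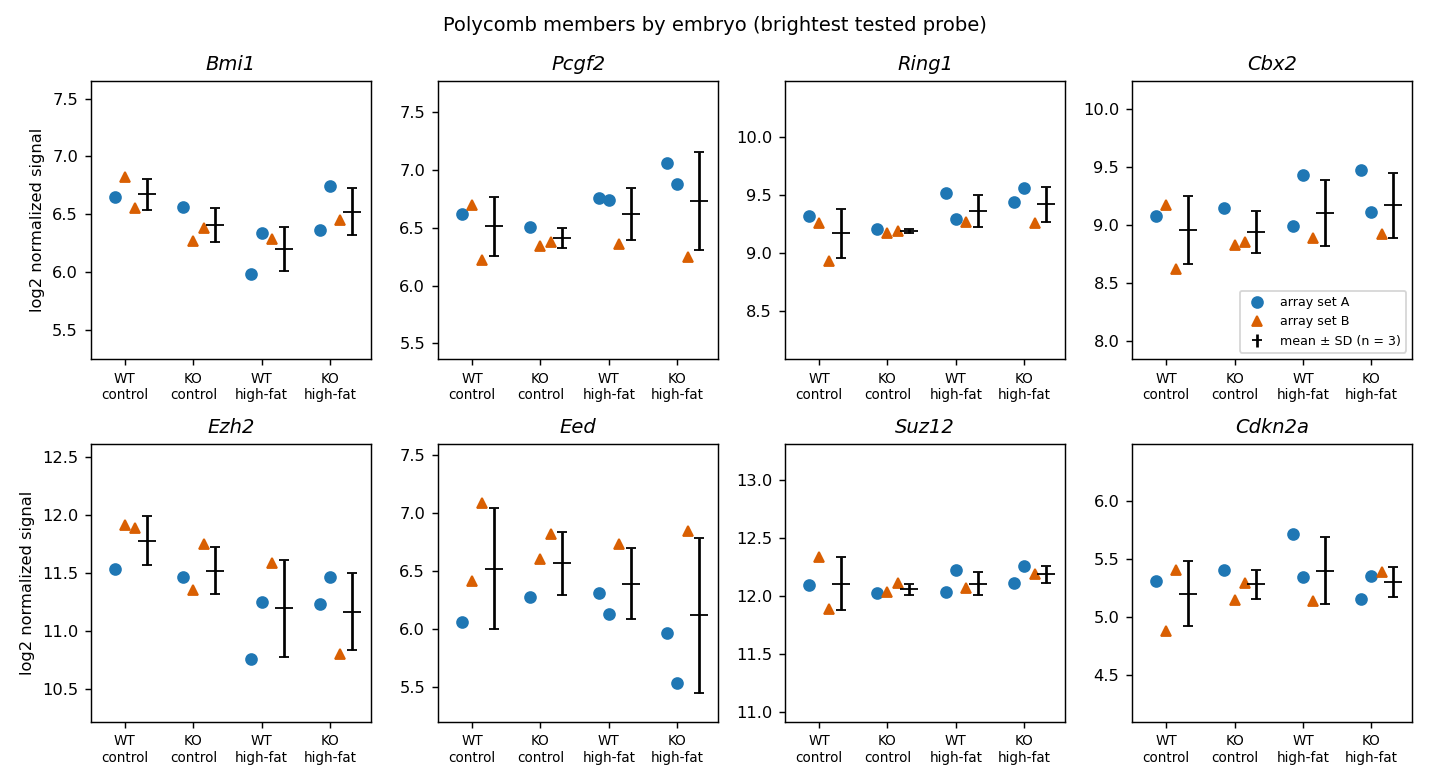
Normalized log2 signal of the 8 tested Polycomb genes in each of the 12 embryos, 1 panel per gene, with circles for array set A, triangles for set B and a bar for the mean ± SD of 3 embryos. Each gene is shown at its brightest tested probe. Bmi1 in high-fat wild-type embryos lies below control-diet wild-type embryos. Eed at ILMN_2765015, though not at its other tested probe, is higher in all set B embryos than in all set A embryos.

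Bmi1 is the ring finger subunit that activates the ubiquitin ligase of canonical PRC1, and its probe ILMN_2645439 was detected in all 12 embryos with signals of 31.4 to 118.2. Its log2 values in control-diet wild-type embryos were 6.65, 6.82 and 6.55, and in high-fat wild-type embryos 5.98, 6.34 and 6.28. In control-diet knockouts they were 6.56, 6.27 and 6.39, and in high-fat knockouts 6.36, 6.75 and 6.45. All high-fat wild-type embryos were thus below all control-diet wild-type embryos, while the knockouts on the 2 diets overlapped. The group means followed the order 6.68 ± 0.13 (SD, n = 3) in control-diet wild type, 6.52 ± 0.20 in high-fat knockout, 6.41 ± 0.15 in control-diet knockout and 6.20 ± 0.19 in high-fat wild type, and neighbours in that order overlapped.

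The diet difference of Bmi1 in wild-type embryos was -0.47 ± 0.15 (SE), with an interval of -0.81 to -0.14 and a limma adjusted p of 0.830. In knockouts it was 0.12 ± 0.15, with an interval of -0.22 to 0.45. The difference between these 2 diet effects, the interaction, was 0.59 ± 0.22 with an interval of 0.11 to 1.06, an unadjusted p of 0.0193 and an adjusted p of 1.00 in limma. With the array set as a block the interaction stayed at 0.59 and the diet effect in wild type was -0.49. Groups without overlap and lower on the high-fat diet were seen at 3.64% of all probes in wild-type embryos. Seen by genotype, the knockout minus wild-type difference was -0.27 ± 0.15 under the control diet and 0.32 ± 0.15 under high-fat feeding, where all 3 knockouts were above all 3 wild types, as at 2.57% of all probes. These 2 differences were opposite in sign, and the averaged genotype effect was 0.02 ± 0.11 with an interval of -0.21 to 0.26. The standard error over beads within an array was 6.02% to 14.6% of the Bmi1 signal.

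**Figure D2:**
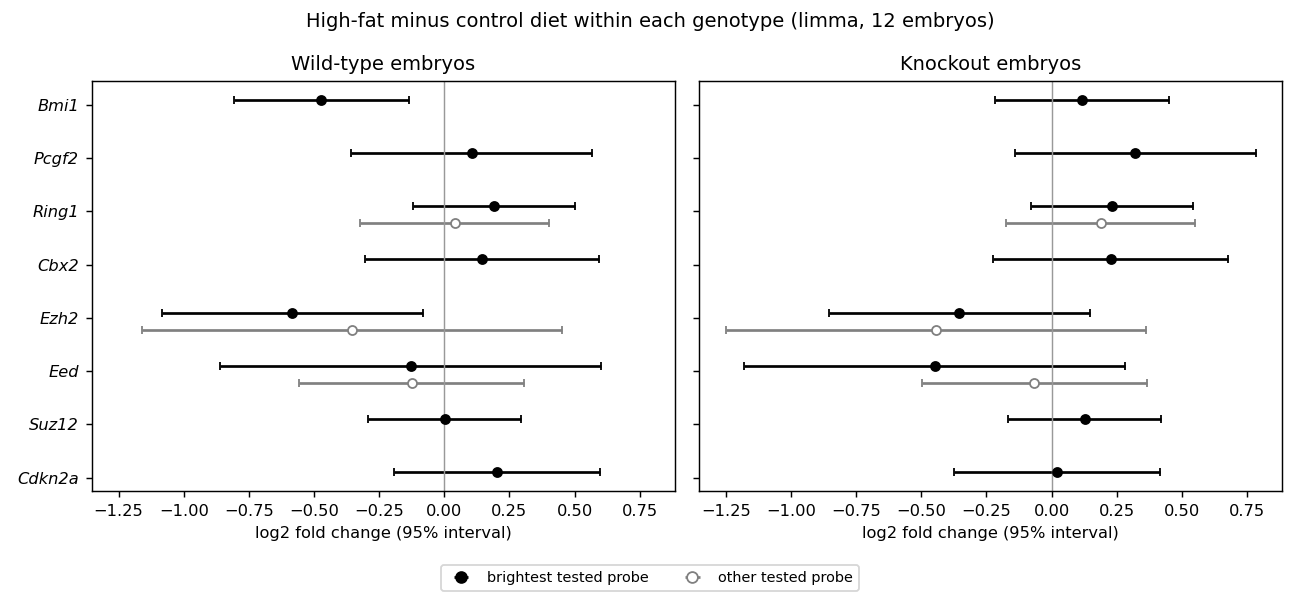
High-fat minus control diet as log2 fold change with 95% interval for each tested Polycomb gene, in wild-type embryos at left and in knockout embryos at right. Filled points are the brightest tested probe of a gene and open points its other tested probe. Bmi1 lies at -0.47 in wild-type and at 0.12 in knockout embryos.

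Pcgf2, also called Mel18, is a close relative of Bmi1 that takes its place in other PRC1 complexes, and its probe ILMN_2650883 read signals of 58.5 to 107.1. Its log2 values were 6.62, 6.70 and 6.22 in control-diet wild-type embryos and 6.50, 6.34 and 6.37 in control-diet knockouts. They were 6.76, 6.74 and 6.35 in high-fat wild-type embryos and 7.06, 6.88 and 6.25 in high-fat knockouts. The 4 groups overlapped, and high-fat knockout replicate 3 was well below the other two of its group. The averaged genotype effect was 0.004 ± 0.15 with an interval of -0.32 to 0.33, and the averaged diet effect 0.21 ± 0.15. With the array set as a block the diet effect was 0.09. The within-set values were 0.30 in set A and -0.11 in set B, where some groups held a single embryo. The Bmi1 pattern over the 4 groups was not seen in Pcgf2, whose diet effects were 0.11 ± 0.21 in wild-type and 0.32 ± 0.21 in knockout embryos, or -0.01 and 0.20 with the set as a block, though no test compared the 2 genes.

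Ring1 and Rnf2 are the catalytic ring finger proteins of PRC1. Ring1 was read by 2 tested probes, and at the brighter, ILMN_2932539, the log2 values were 9.32, 9.26 and 8.93 in control-diet wild-type embryos and 9.20, 9.17 and 9.19 in control-diet knockouts. They were 9.52, 9.29 and 9.26 in high-fat wild-type embryos and 9.43, 9.56 and 9.26 in high-fat knockouts. All high-fat knockouts were above all control-diet knockouts at both probes, as were 8.49% of all probes, while the wild-type groups overlapped. The averaged diet effect was 0.21 ± 0.10 with an interval of -0.01 to 0.43 (limma adjusted p = 0.426), and 0.11 ± 0.12 at the dimmer probe ILMN_2770715, or 0.03 there with the set as a block. The averaged genotype effect was 0.04 ± 0.10 at the brighter probe and 0.04 ± 0.12 at the dimmer. Rnf2, also called Ring1b, was read by 1 probe that was detected in 0 of 12 embryos, with signals of -0.4 to 14.6, so it was not measured above background here.

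Cbx2 is one of the chromodomain subunits that dock PRC1 on methylated histone H3, and its probe ILMN_2692207 read signals of 372.4 to 654.9. The log2 values were 9.08, 9.18 and 8.63 in control-diet wild-type embryos, 9.15, 8.83 and 8.85 in control-diet knockouts, 8.99, 9.43 and 8.89 in high-fat wild-type embryos and 9.48, 9.11 and 8.92 in high-fat knockouts. The 4 groups overlapped. The averaged genotype effect was 0.03 ± 0.15 with an interval of -0.29 to 0.34. The averaged diet effect was 0.19 ± 0.15, and 0.09 with the array set as a block.

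Ezh2 is the main methyltransferase of PRC2 in dividing cells, and its bright probe ILMN_1234171 read signals of 1406.9 to 4187.3. Its log2 values in control-diet wild-type embryos were 11.54, 11.91 and 11.89, and in control-diet knockouts 11.46, 11.35 and 11.75. In high-fat wild-type embryos they were 10.75, 11.25 and 11.59, and in high-fat knockouts 11.23, 11.47 and 10.81. The lowest 4 of the 12 values belonged to high-fat embryos and the highest 3 to control-diet embryos, with overlap between. The averaged diet effect was -0.47 ± 0.16, with an interval of -0.82 to -0.11, an unadjusted p of 0.0141 and a limma adjusted p of 0.410. It was -0.58 ± 0.23 in wild-type and -0.35 ± 0.23 in knockout embryos. With the array set as a block it was -0.43, and within the sets it was -0.32 in A and -0.53 in B. The averaged genotype effect was -0.14 ± 0.16, and 0.14 in set A against -0.56 in set B. The high-fat part of the set B value came from a single knockout at 10.81 and a single wild type at 11.59. Beads within an array gave a standard error of 2.15% to 4.16% of the signal.

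A second tested Ezh2 probe, ILMN_2988572, was detected in 10 of 12 embryos at signals of 6.9 to 96.5. Its diet effect was -0.40 ± 0.26, and -0.15 with the set as a block. All 6 set B embryos were above all 6 set A embryos at this probe, by 0.80 on average. The same absence of overlap between sets, with B higher, was seen at 11.1% of all probes. The 2 Ezh2 probes correlated at 0.469 over the 12 embryos. The remaining Ezh2 probe was detected in 0 embryos. Ezh1, the related methyltransferase of non-dividing cells, was read by 1 probe with signals of 5.1 to 21.1 that was detected in 1 control-diet knockout, and it was not tested.

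**Figure D3:**
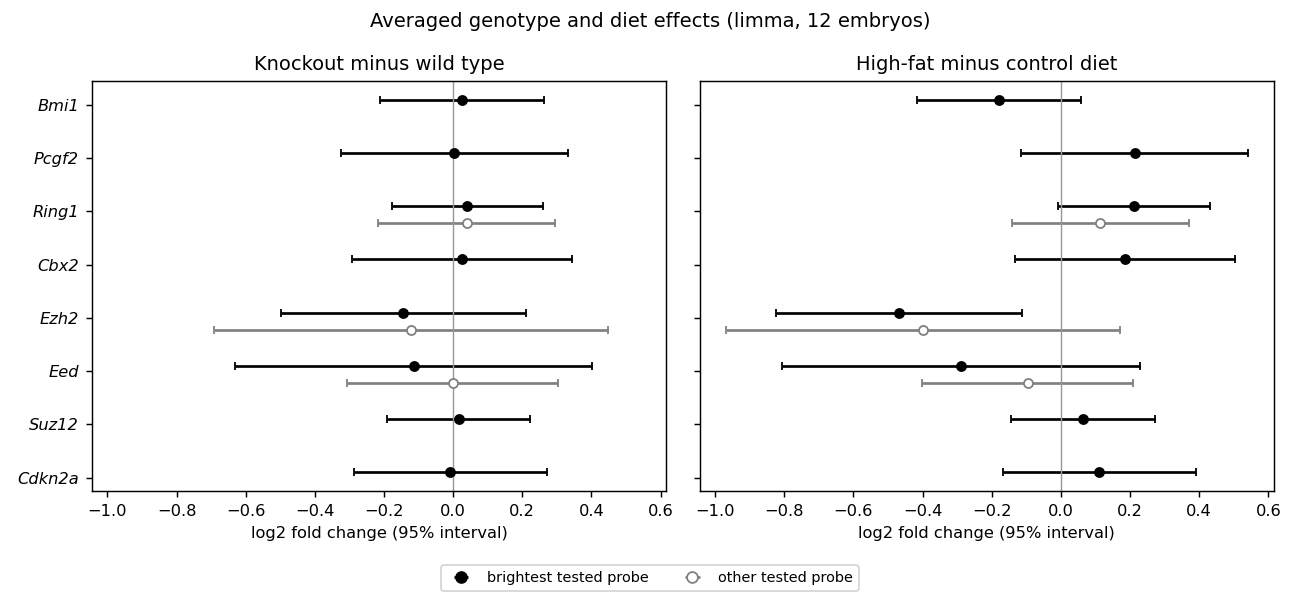
Averaged genotype effect (knockout minus wild type, left) and averaged diet effect (high-fat minus control, right) of each tested Polycomb gene, as log2 fold change with 95% interval. Filled points are the brightest tested probe and open points the other tested probe. All intervals at left include 0, and at right the bright Ezh2 probe at -0.47 has an interval that does not.

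Eed, the PRC2 subunit that binds the finished methyl mark, was read by 2 tested probes that did not move together. At ILMN_2765015 the log2 values were 6.06, 6.41 and 7.09 in control-diet wild-type embryos, 6.28, 6.60 and 6.82 in control-diet knockouts, 6.31, 6.13 and 6.73 in high-fat wild-type embryos and 5.97, 5.54 and 6.85 in high-fat knockouts. All set B embryos were above all set A embryos here, with means of 6.75 and 6.05. The averaged diet effect was -0.29 ± 0.24, and -0.06 with the set as a block. The averaged genotype effect was -0.11 ± 0.24. At ILMN_1253609, set B was on average 0.23 below set A, with overlap, and the diet effect was -0.10 ± 0.14, or -0.19 with the set as a block. The 2 Eed probes correlated at -0.496 over the 12 embryos, so no single Eed pattern can be given.

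**Figure D4:**
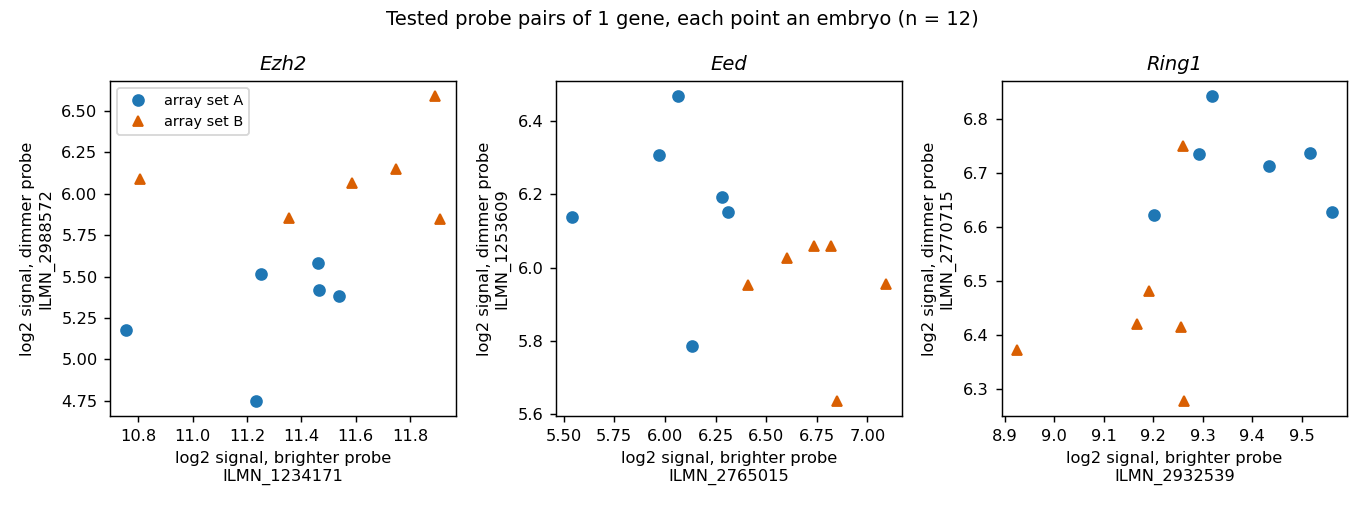
Normalized log2 signal of the 2 tested probes of Ezh2, Eed and Ring1 against each other, 1 point per embryo, with circles for array set A and triangles for set B. The pairs correlate at 0.469, -0.496 and 0.550, and the sets separate along 1 axis for Ezh2 and Eed.

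Suz12 is the scaffold of PRC2, and its probe ILMN_3009010 varied least among the brightest probes of the 8 tested members, with signals of 3392.9 to 5496.4 and an SD of 0.12 log2 units over the 12 embryos. The log2 values were 12.09, 12.34 and 11.89 in control-diet wild-type embryos, 12.03, 12.03 and 12.11 in control-diet knockouts, 12.03, 12.22 and 12.07 in high-fat wild-type embryos and 12.11, 12.26 and 12.19 in high-fat knockouts. All 4 groups overlapped. The averaged genotype effect was 0.02 ± 0.09 with an interval of -0.19 to 0.22, and the averaged diet effect 0.06 ± 0.09. A second Suz12 probe was detected in 0 embryos.

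Cdkn2a was near background. Its probe ILMN_1221177 was detected in 8 of 12 embryos, 2 of 3 in each group, with signals of 14.6 to 31.3, and its other 2 probes were detected in 0. The platform annotation does not say which of the Ink4a and Arf transcripts a probe reads. The log2 values were 5.32, 4.88 and 5.41 in control-diet wild-type embryos and 5.41, 5.15 and 5.29 in control-diet knockouts. They were 5.72, 5.35 and 5.14 in high-fat wild-type embryos and 5.16, 5.36 and 5.40 in high-fat knockouts. The groups overlapped, and the averaged genotype effect was -0.01 ± 0.13 with an interval of -0.29 to 0.27. The averaged diet effect was 0.11 ± 0.13, or 0.06 with the set as a block. With bead errors of 16.3% to 44.1% of the signal, this probe limits what could be seen.

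For the genotype effect averaged over the diets, the 8 genes lay between -0.14 and 0.04, with a median of 0.01 beside 0.001 over all tested genes. At the brightest tested probe of each gene the 95% intervals reached from -0.63 to 0.40, or at most 1.55-fold on the scale of the normalized signal. The interval of the dimmer Ezh2 probe was wider, from -0.69 to 0.45. For the averaged diet effect they lay between -0.47 and 0.21, with a median of 0.09 beside 0.05 over all tested genes. Of the 8, 5 were positive and 3 negative in either averaged comparison. In whole embryos, fewer cells of a type and less RNA per cell cannot be told apart.

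Among other subunits of the complexes, from lists drawn up for this purpose, none passed. Of 18 tested further PRC1 genes, 0 passed in the averaged genotype effect, with a median of 0.004, and 0 in the averaged diet effect, with a median of 0.01. The highest in both was Cbx7, a chromodomain subunit like Cbx2, at 0.52 ± 0.18 for genotype and 0.71 ± 0.18 for diet (limma adjusted p = 1.00 and 0.401). The lowest were Yaf2, a PRC1 subunit related to Rybp, at -0.22 for genotype and Scmh1 at -0.46 for diet, the latter -0.11 with the set as a block. Of 5 tested further PRC2 genes 0 passed, with medians of -0.03 for genotype and -0.25 for diet. Phf19, which helps recruit PRC2, was lowest for genotype at -0.42 ± 0.12 (limma adjusted p = 0.878). Its mean log2 signal of 5.43 was dim, close to the 5.30 of Cdkn2a. Rbbp4, a histone-binding subunit, was lowest for diet at -0.48 ± 0.27, or -0.18 with the set as a block. Aebp2 was highest in both, at 0.05 for genotype and 0.26 for diet, the latter 0.15 with the set as a block.

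Of 11 tested chromatin regulators, from a list drawn up as opponents of Polycomb silencing, 0 passed. Being on that list does not mean that a gene, such as Asxl1 or Asxl2, only opposes it. Kdm6a, a demethylase of the PRC2 mark, was highest for genotype at 0.20 and Asxl2, dim at a mean log2 signal of 5.45, lowest at -0.15. For diet Asxl1 was highest at 0.34 and Wdr5 lowest at -0.17, or -0.02 with the set as a block. Of 5 tested inhibitors of cyclin-dependent kinases other than Cdkn2a, 0 passed. Cdkn1c was highest for genotype at 0.25 and Cdkn2c for diet at 0.23 (0.15 with the set as a block), while Cdkn1b was lowest in both at -0.29 and -0.39. Of 12 tested proliferation genes 0 passed, with medians of 0.02 for genotype and -0.02 for diet. Plk1 was highest for genotype at 0.07. Ccna2, dim at a mean log2 signal of 5.59, was highest for diet at 0.17, which turned to -0.02 with the set as a block. Aurkb was lowest in both, at -0.13 for genotype and -0.63 for diet, the latter -0.20 with the set as a block. Of 22 tested Hox genes, the textbook Polycomb targets, 0 passed and 16 were negative for genotype, with a median of -0.21 beside 0.001 over all genes. Hoxa9 was lowest at -0.95 ± 0.28 (limma adjusted p = 0.954) and Hoxb5 highest at 0.18, and for diet, with a median of -0.22, Hoxd4 was lowest at -0.91 and Hoxb6 highest at 0.39. With the set as a block these diet values were -0.46 and 0.23.

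The members were set against markers of tissues that the dissection could have left. Of 10 yolk sac visceral endoderm markers 5 were tested, all 5 positive for genotype (50.5% of all tested genes were) with a median of 1.05, and 0 passed. For the averaged diet effect 4 of the 5 were positive (59.8% of all tested genes were), with a median of 0.68. For diet in wild-type embryos, where Bmi1 and Ezh2 had negative values, 5 of 5 were positive (60.4% of all tested genes), with a median of 0.89. For diet in knockouts, where Bmi1 was at 0.12 and Ezh2 at -0.35, 4 of 5 were positive (57.5% of all tested genes), with a median of 0.71. Apoa1 was highest at 1.26 and Ttr lowest at 0.68 for genotype, and Apoa4 highest at 1.15 and Ttr lowest at -0.17 for diet, which turned to 0.45 with the set as a block. The summed normalized signal of the 5 ran from 832 to 6679 in control-diet wild type, 2007 to 13626 in control-diet knockout, 1464 to 9104 in high-fat wild type and 2593 to 17951 in high-fat knockout embryos. The defining markers Afp and Alb were detected in 0 embryos. The members' correlations with the mean of these markers, as deviations from group means over 12 embryos, ran from -0.473 for Cbx2 to 0.526 for Eed at ILMN_2765015, and the markers' part in the members' values was not tested. Of 8 trophoblast markers 3 were tested and 0 passed, with Elf5 and Tpbpa detected in 0 embryos. Prl2c2 was highest in both comparisons, at 1.07 for genotype and 0.94 for diet, with Hand1 lowest for genotype at -0.04 and Cdx2 for diet at 0.30. Their sums were 2477 to 3069 and 2323 to 3383 in control-diet wild-type and knockout embryos, and 3098 to 3442 and 3027 to 4514 in high-fat ones. These sums mainly follow Cdx2, with a mean log2 signal of 11.48 beside 6.72 for Hand1 and 6.54 for Prl2c2. They therefore do not measure trophoblast left by the dissection. Of 5 maternal and adult blood markers only Dcn was tested, at 0.07 for genotype and -0.31 for diet, and Ptprc was detected in 0 embryos. Of 10 embryo markers 7 were tested, 6 of them negative for genotype (49.5% of all tested genes were) with a median of -0.36. Of these, Meox1, a somite factor, fell by 0.69 ± 0.10 in knockouts (limma adjusted p = 0.0211). Hbb-bh1 was lowest for genotype at -0.84 ± 0.97 and highest for diet at 1.21 ± 0.97. It is a globin of embryonic blood and does not mark the embryo without its yolk sac, though the count of 6 includes it. Shh was highest for genotype at 0.05 and Myl7 lowest for diet at -0.92, while Pax6 and Foxd3 were detected in 0 embryos.

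Within groups, the members did not vary as one block. Pearson correlations of deviations from group means over the 12 embryos ran from -0.553 for Cdkn2a with Ezh2 to 0.805 for Pcgf2 with Cbx2 over the 21 pairs without Eed, with a median of 0.169. For Eed the 2 probes gave different pictures: ILMN_2765015 was negative with 6 of 7 other members, down to -0.859 with Pcgf2, and ILMN_1253609 with 2 of 7, reaching 0.622 with Pcgf2. Bmi1 correlated at 0.639 with Suz12, at 0.569 with Ezh2, at 0.169 with Pcgf2 and at -0.349 with Cdkn2a. Ring1 correlated at 0.761 with Pcgf2. With the array set removed as well, the range without Eed was -0.827 for Cdkn2a with Cbx2 to 0.663 for Cbx2 with Suz12. These are descriptions of 12 arrays that share normalization and array sets.

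**Figure D5:**
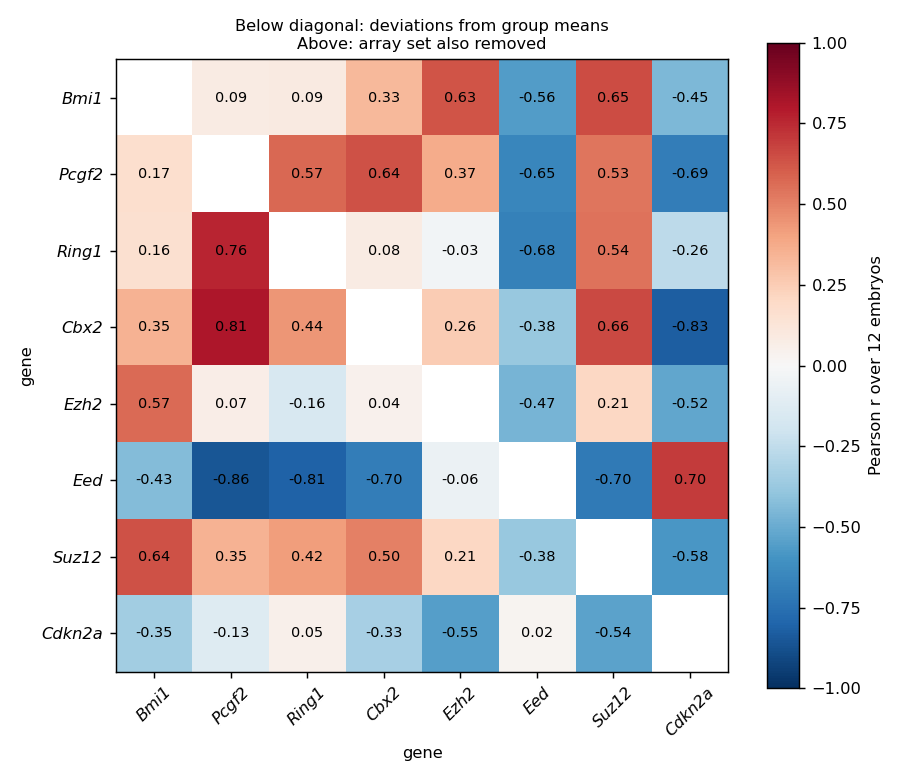
Pearson correlation between tested Polycomb genes over 12 embryos, as deviations from group means below the diagonal and with the array set also removed above it. Pcgf2 with Cbx2 is at 0.81 below the diagonal, and Eed, plotted at ILMN_2765015 alone, is negative with 6 of 7 other members there.

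Of 10763 other tested genes, those most like a member by the same measure were Bcl6 (0.889) and Kif18a (0.876) for Bmi1. For Pcgf2 they were Rps19bp1 (0.962) and Sec22c (0.956), for Ring1 Zfp874b (0.975) and Dmwd (0.968), and for Cbx2 Ulk1 (0.993) and Mtbp (0.985). For Ezh2 they were Guf1 (0.962) and Cnot1 (0.960), for Eed at ILMN_2765015 Ftsj3 (0.964) and Col9a3 (0.963), for Suz12 Rnf44 (0.969) and Unc13b (0.964), and for Cdkn2a Prss8 (0.947) and Tmem59l (0.943). Each is the highest of many correlations over the same 12 arrays, and no member was the closest match of another.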

How the data were processed

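Total RNA of 12 embryos was measured on 1-colour Illumina arrays. The authors exported the average signal, a bead intensity on a linear scale, from BeadStudio 3.2.6 (per the submitters' processing notes). Also, the deposited tables held a detection p-value, bead standard deviations as intensity and a detection score given as a fraction, per the file headers. The authors' deposited processed log2 values served as an alternative, whose normalization no source used here gives. Columns of no known sample numbered 0. Probe genes came from the platform annotation, which gave 1 symbol for 34885 of 45281 probes, several for 18 and none for 10378. The files name no genome build.

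Signals were processed with neqc of limma 3.58.1 in R 4.3.3 (background from the detection p-values, offset 16). Tested probes had detection p-values below 0.01 on 3 or more arrays, with lmFit and eBayes on 4 group means in 1 fit, 7 contrasts and Benjamini-Hochberg adjustment at 0.05. The number of arrays limits the precision. Only the limma fit was tested on simulated data, with added genotype changes and independent noise that held no array sets or title numbers. A gene was taken at its brightest tested probe. All 10 members were named, and of each further list every gene that passed and the highest and lowest gene in both averaged effects. The likeness rule named the 2 genes closest to each member. The members and lists were chosen with earlier results of these data known. The array sets lie on either side of the largest gap in bead coefficient of variation over probes with signal above 500. That choice of probes was made to match an earlier division, and the largest gap lay elsewhere over other probes. Alternatives covered scaling, background, the authors' values, filters, array set, replicate and title numbers, array weights, Y-linked signal, other probes and each array left out.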

Additional observations from a re-analysis of the deposited data

How the results depend on the processing

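No member passed in any comparison under 22 of the 23 alternatives, including each of the 12 that left out 1 array (0 to 0 members in every comparison). The exception was weighting arrays by their quality, which called 4 members for the averaged diet effect (Ezh2 at -0.37, Eed at -0.58, Pcgf2 at 0.29 and Ring1 at 0.21, limma adjusted p 0.0220 to 0.0454). The same weights called 2 for diet in wild-type embryos, Ezh2 at -0.62 and Bmi1 at -0.44 (limma adjusted p 0.0425 and 0.0480). Beside these 4 and 2 of the 8 tested members, they called 6128 and 1466 of all 19595 tested probes. The weights ran from 0.395 to 7.43, the latter for high-fat wild-type replicate 2. Another alternative, chosen after seeing the data, weighted arrays with the array set as a block. Its weights were estimated anew with the set in the fit and did not fully converge. There 0 members and 0 probes passed in both comparisons, but the weights changed along with the set block. The cause was not tested.

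Over all probes, the 14 calls of the averaged genotype effect became 27 with the set as a block, 4 among 14496 probes detected on all arrays, 120 with array weights, 30 with weights and set, and 12 to 19 with 1 array left out. On the control diet the 8 calls ranged from 2 to 22, and on the high-fat diet the 3 calls from 0 to 1325. Weights called 218 probes for diet in knockouts. Of the 14 genotype calls 35.7% were higher, against 20% of 20 with median scaling and 17.6% of 17 with the Y-linked covariate. Median scaling shifted the median of all probes to -0.14 for diet in wild type. Relative to that shift Bmi1 was -0.55 and Ezh2 -0.58, beside -0.50 and -0.61 relative to the median of 0.03 in the fit reported.

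Bmi1's diet effect in wild type ranged from -0.69 to -0.34 over the alternatives, and its interaction from 0.42 to 0.75 (unadjusted p 0.00137 to 0.0542). Without high-fat knockout replicate 3, the diet effects in knockouts became 0.56 for Pcgf2 and -0.81 for Eed at ILMN_2765015, neither passing. That array was the only set B array of its group. Set B minus set A was -0.39 for Pcgf2 and 0.70 at this Eed probe, and the part of the set in these values was not tested. With all arrays kept, the other tested Eed probe had a diet effect of -0.07 in knockouts.

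Replicate numbers were not taken as pairs, since not every same-numbered pair of arrays had deviations correlated over 0.1 (13 of 18 did). The correlations were 0.271 to 0.682 for number 1, -0.264 to 0.202 for number 2 and 0.272 to 0.588 for number 3, and 8 of 12 arrays correlated best with their own number, a hint from the data and not the design. All 4 arrays numbered 1 lay in set A and all 4 numbered 3 in set B, so number and set cannot be told apart there. A replicate block called 0 members, and 24 and 338 probes for genotype and diet averaged. Same title numbers correlated at -0.525 to 0.367, and as a random block gave 0 members and 14 probes for genotype. The pairs within a set were high-fat knockout replicate 1 with high-fat wild-type replicate 2 (0.367) and the control-diet replicates 2 (0.202). Every other pair had 1 embryo in each set, at -0.525 to -0.116. Likeness by title number and by set therefore cannot be told apart.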
